A study of Mus musculus with 2 samples.

Results

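Genes of the B lineage were examined in T helper 2 (Th2) cells, to describe which of them had open chromatin in a cell of another lineage. The 9 members, of 21938 protein-coding genes, were given as a list of names: Pax5, Ebf1, Pou2af1, Cd79a, Cd79b, Blnk, Cd22, Ms4a1 and Cr2. For each, all open regions were taken that overlapped the gene body or the 20 kb on either side. The assay was ATAC-seq: a transposase cuts accessible DNA and tags the cut ends for sequencing. The samples were primary Th2 cells of the mouse strain C57BL/6NJ, in 1 group of 2 biological replicates, with no treatment, allele or control given. Sex was not collected and age is listed as unknown. Both libraries trace to the same donor record through separate biosamples, and nothing says that the cells came from separate animals, so part or all of their spread can be technical.

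Each library came as a list of open regions on mm10, 51557 in replicate 1 and 60891 in replicate 2. Every region carries the authors' fold enrichment, the height at its summit over background, and values below are this fold unless another quantity is named. Ranks are within 1 list. The depth of the libraries is unknown, but under a Poisson model fold and p-value together gave back a whole-number summit height, here called the pileup. Whether it counts reads, fragments or cut sites is not given. Regions of the replicates that overlapped by at least 1 bp were joined, and 44136 joined regions were found in both. Each region's name includes ASTARR, insert and a number of hours, and what these stand for is not given in the labels or headers. It was not determined whether the sequenced DNA came straight from cells or from accessible fragments cloned as inserts, and in the latter case the folds would also carry the cloning step. The regions are called open as the labels name the assay. Marker genes were checked in the lists: all 12 T cell markers and all 7 Th2 markers had a promoter region in both replicates. Of 10 B cell markers 1 did, Ebf1, and 6 of these 10 are members themselves. The count depends on the choice of genes, as the members Pou2af1, Blnk and Cr2, which had one, are not among the 10. Over all protein-coding genes the share was 57.3%. Of 6 myeloid markers 1 did, Cd14. The part of other cells in the values below was not tested.

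Commitment to the B lineage rests on the transcription factors Ebf1 and Pax5, which switch on B cell genes and repress those of other lineages. Pou2af1 encodes OCA-B, a coactivator that binds octamer factors on B cell promoters. Cd79a and Cd79b encode the signalling chains of the B cell receptor, and Blnk the adaptor that links the receptor's kinases to downstream enzymes. Cd22 is an inhibitory lectin of the B cell surface, Ms4a1 encodes CD20, and Cr2 encodes the complement receptors CD21 and CD35.

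The bases around the summits, centred on the midpoint of the replicates' summits, are shown first, to give the sequence that was accessible at each gene. They were read from GRCm38.p6, the build of the lists, although its strain is C57BL/6J. For members with a promoter region the summit of that region is given, and for the others the summit of their highest own region. Runs are 5′ to 3′ on the gene's strand, and capitals mark matches to the consensus sequences described further on. The Cr2 run was shortened by bases of an annotated untranslated exon, and for Blnk only the octamer match and 10 bases on each side are shown for the same reason. Ms4a1 had no region. Where no match is given, this refers to the printed bases alone. The 200 bp windows searched further on held TCF matches at Cd79a and Cd22, and E-box and GC box matches at Cr2.
Pax5, intron 6, chr4:44624992-44625091, minus strand, with a RUNX match: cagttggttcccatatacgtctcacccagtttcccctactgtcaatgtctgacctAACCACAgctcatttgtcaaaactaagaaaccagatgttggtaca
Ebf1, promoter, chr11:44617124-44617223, plus strand, with no match: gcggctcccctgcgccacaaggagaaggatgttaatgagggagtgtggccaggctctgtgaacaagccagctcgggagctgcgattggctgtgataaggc
Pou2af1, promoter, chr9:51213945-51214044, plus strand, with an NFAT and an AP-1 match: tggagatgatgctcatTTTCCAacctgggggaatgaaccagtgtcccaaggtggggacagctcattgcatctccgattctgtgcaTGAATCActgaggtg
Cd79a, upstream flank, chr7:24890530-24890629, plus strand, with no match: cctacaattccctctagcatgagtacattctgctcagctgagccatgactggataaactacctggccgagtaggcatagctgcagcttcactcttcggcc
Cd79b, upstream flank, chr11:106325689-106325788, minus strand, with no match: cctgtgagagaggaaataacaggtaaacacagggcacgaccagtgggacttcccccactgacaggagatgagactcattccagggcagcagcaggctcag
Blnk, promoter, chr19:40994334-40994361, minus strand, with an octamer match: actggaagggATTTGCATgcccaataag
Cd22, downstream flank, chr7:30846652-30846751, minus strand, with no match: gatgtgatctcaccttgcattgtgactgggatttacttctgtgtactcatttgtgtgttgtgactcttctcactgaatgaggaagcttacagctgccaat
Cr2, promoter, chr1:195176717-195176802, minus strand, with no match: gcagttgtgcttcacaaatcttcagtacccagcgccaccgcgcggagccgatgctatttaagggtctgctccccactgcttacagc

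The members divided by the state of their promoters. Ebf1, Pou2af1, Blnk and Cr2 had a region centred within 1 kb of a protein-coding start site in both replicates. Cd22 had one in replicate 2 alone, and Pax5, Cd79a, Cd79b and Ms4a1 had none at the start sites of the basic annotation. The 4 of 9 stand against 57.3% of all protein-coding genes. The windows of the 9 genes held 37 regions of replicate 1 and 56 of replicate 2, which joined into 33 regions found in both. Of these, 29 were the members' own and 4 lay at promoters of other genes, Rps19, Arhgef1 (2 regions) and Cr1l. Own means centred over 1 kb from start sites of other protein-coding genes, or within 1 kb of one of the member's. Own regions thus include some at Cd79a, Cd79b, Blnk and Cd22 that lay nearer to another gene's start site. At least 1 region found in both replicates was present in 75% of all gene windows and in those of 8 members, Ms4a1 being the exception.

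**Figure D1:**
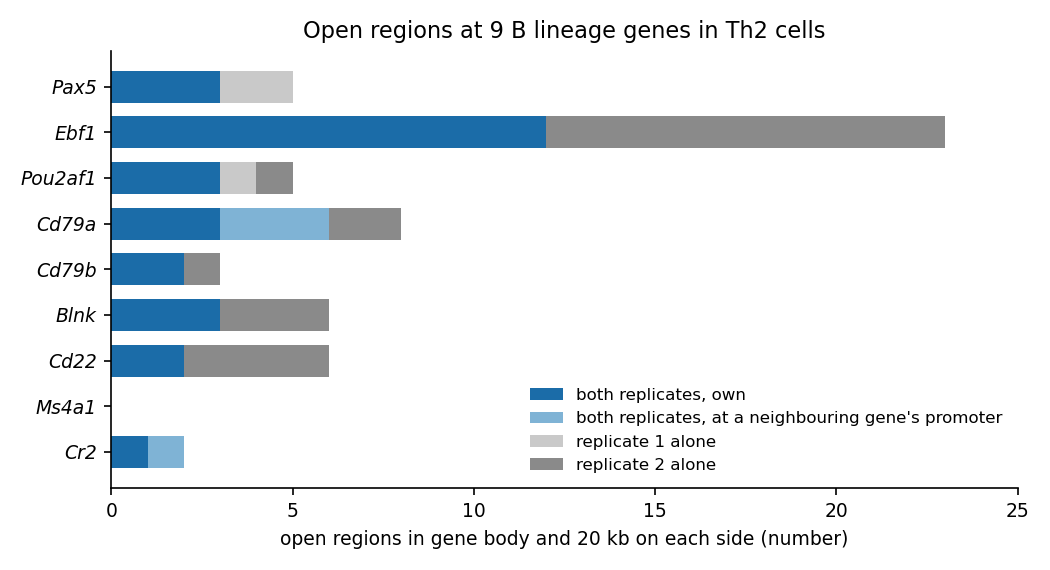
Number of open regions per member window (the gene with 20 kb of flank at both ends), split into regions found in both replicates that are the member's own, those at a neighbouring gene's promoter, and regions of 1 replicate alone. Ebf1 held 12 regions found in both and 11 of replicate 2 alone, and Ms4a1 held none.

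Distance from the start sites differed among the own regions. Of the 29, 5 were at promoters (2 of them at Ebf1), 2 lay 1 to 5 kb from the nearest start site, 10 lay 5 to 20 kb away and 12 lay farther. Introns of the members held 13 and their exons 3, while 8 lay in upstream flanks and 5 in downstream flanks. The median own region had a fold enrichment of 4.94 in replicate 1 and 5.9 in replicate 2, against 6.19 and 7.08 over all regions found in both. Own regions above these genome-wide medians numbered 10 and 12. The range ran from 2.82 to 12.6 in replicate 1 and from 2.09 to 12.6 in replicate 2. Promoter regions made up 5 of the 29 own regions and 12107 of the 44136 found in both. Outside promoters the median own fold was 4.91 and 5.8, against 5.5 and 6.29 over all such regions. At promoters it was 9.45 and 9.49, against 9.22 and 10.4.

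**Figure D2:**
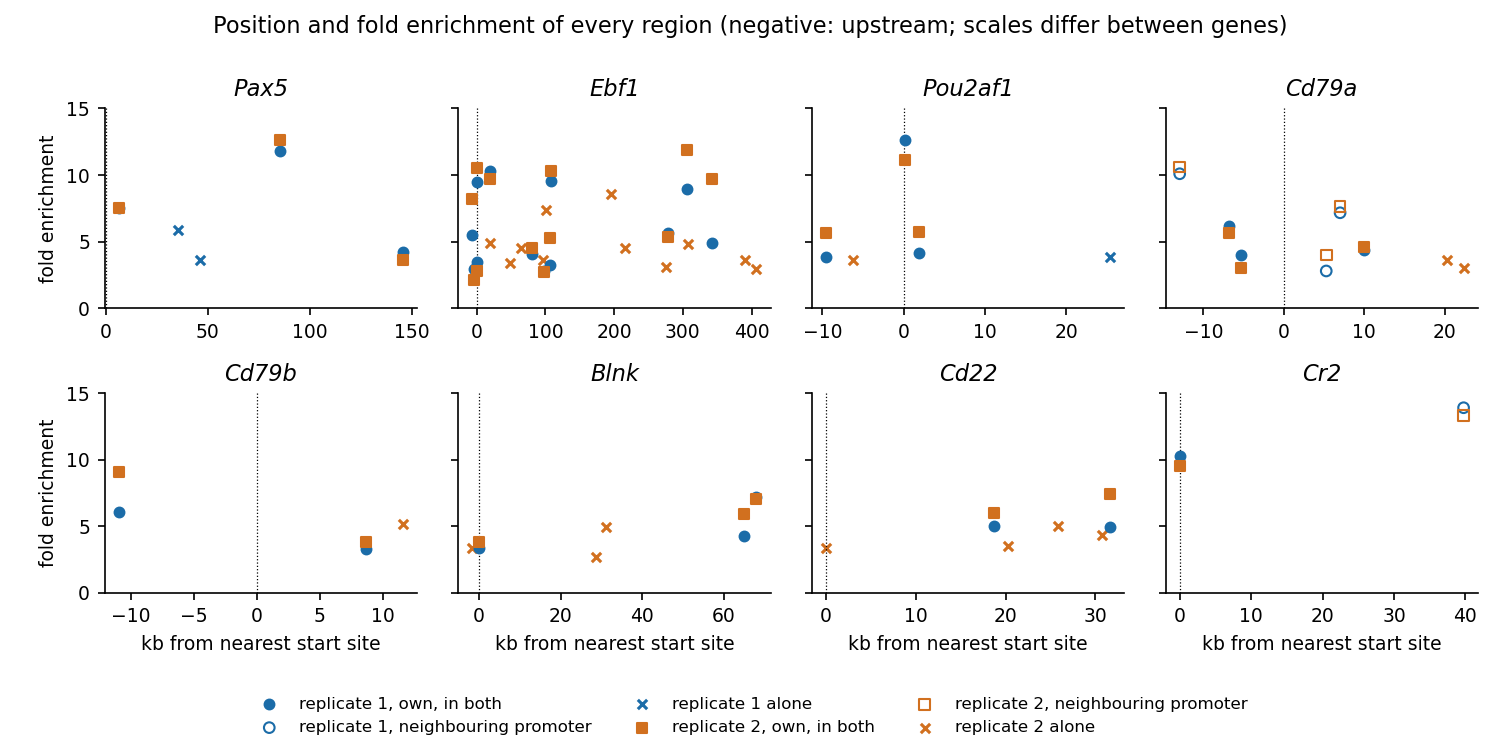
Fold enrichment of every region against the distance of its centre from the nearest start site of the member, for the 8 members with a region; circles are replicate 1, squares replicate 2, open symbols neighbouring promoters and crosses regions of 1 replicate alone. The highest own value is at the Pou2af1 promoter in replicate 1 and in intron 6 of Pax5 in replicate 2. None of Cd79a, Cd79b and Cd22 has a filled symbol at its start site.

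Ebf1, the factor that specifies the B lineage, was the member with most regions. Its promoter region at chr11:44616749-44617718, centred 84 bp from the start site, had fold enrichments of 9.45 and 10.5 in replicates 1 and 2. The pileups were 84 (95% exact Poisson interval 67 to 104) and 119 (98.6 to 142). Among 12107 promoter regions found in both replicates this lay at the 51.9th and 50.7th percentile, the middle of the range. A second region, at chr11:44617886-44618527 over exon 1, had 3.5 and 2.76 and lay at the 4.76th and 1.04th percentile. RefSeq places a start of Ebf1 at 44618100, 106 bp from the centre of this second region. For another RefSeq start, at 44620228, the nearest region found in both was centred 2022 bp away.

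Upstream of Ebf1, regions 6.1 and 4.2 kb away had 5.48 and 8.22, and 2.98 and 2.09. The summits of the 4.2 kb region lay 367 bp apart between the replicates. Intron 5 held a region 19.1 kb into the gene with 10.3 and 9.67. Intron 6 held 4 regions, at 80.7, 98.5, 107.2 and 108.5 kb, of which the last was the highest with 9.56 and 10.3. The first had 4.1 and 4.52, the second 2.82 and 2.71, and the third 3.25 and 5.24. Farther in, intron 8 held a region with 5.64 and 5.38, intron 9 one with 8.98 and 11.9, and intron 10 one with 4.87 and 9.71. The intron 9 region, 305.9 kb from the start site, was the highest of the gene in the mean of the replicates, and the intron 10 region had the widest gap between them, 1.99 times. The Ebf1 window spans 431 kb, and its own regions came to 2.79 per 100 kb, at the 56.5th percentile of all genes. The 12 regions found in both, counted without regard to length, lay at the 98.7th percentile.

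Pax5, the commitment factor, had no region at the start sites of the basic annotation on chromosome 4, 44710408 to 44710487. The nearest region found in both lay at chr4:44703420-44704778, in intron 1, with 7.55 and 7.53 and pileups of 42 (30.3 to 56.8) and 39 (27.7 to 53.3). In the comprehensive annotation, protein-coding transcripts of Pax5 also start at 44704006, inside this region and 93 bp from its centre, and at 44703413, just outside it. The region's summit lay farther off, 572 and 1165 bp from these starts. Pax5 is known to be transcribed from alternative first exons. With the comprehensive annotation, chosen after the values were seen, Pax5 counted as having a promoter region and the members came to 5 of 9, against 58% of genes. The upstream Pax5 starts had a region in neither replicate.

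The highest own region of Pax5 lay in intron 6 at chr4:44624613-44625397, 85.4 kb into the gene, with 11.8 and 12.6. It ranked at the 91.1st percentile of the replicate 1 list and at the 90.1st of replicate 2, and its summits lay 22 bp apart. Its pileups were 67 (51.9 to 85.1) and 63 (48.4 to 80.6). A weak region in intron 8 had 4.2 and 3.61. Intron 5, which is known to hold a B cell enhancer of Pax5, had regions in replicate 1 alone, 35.4 and 46.0 kb into the gene, with 5.9 and 3.59. Whether they lie at that enhancer was not determined. Own regions of Pax5 came to 1.33 per 100 kb, at the 33.5th percentile of all genes, whose median was 2.27.

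Pou2af1, the coactivator gene, had the highest promoter value of the members in each replicate. Its region at chr9:51213482-51214225, centred 145 bp from the start site, had 12.6 and 11.1, with pileups of 83 (66.1 to 103) and 107 (87.7 to 129). The summits of the replicates fell on the same base, and the region ranked at the 82nd and 55.8th percentile of promoter regions. A region in intron 1, 1.9 kb from the start site, had 4.13 and 5.71, and one 9.5 kb upstream had 3.82 and 5.65. Regions of 1 replicate alone lay over exon 5 in replicate 1, with 3.85, and 6.2 kb upstream in replicate 2, with 3.61.

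The receptor chain genes lacked a promoter region in either list. Cd79a is a short gene of 4.82 kb, and of the 6 regions found in both in its window 3 lay at promoters of its neighbours. The promoter of Rps19, a ribosomal protein gene, had 10.1 and 10.6. The 2 regions at start sites of Arhgef1, which encodes a guanine nucleotide exchange factor, had 2.8 and 4.01, and 7.17 and 7.65. The remaining 3 lay 6.8 and 5.3 kb upstream of Cd79a and 5.1 kb past its end. The first, at chr7:24890091-24891097, had 6.2 and 5.65, was nearer to the start of Rps19 than to that of Cd79a, and was the highest. The second had 4 and 3.02, and the third, inside Arhgef1, had 4.36 and 4.62.

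Cd79b had 2 own regions and none nearer than 8.7 kb to a start site. The upstream one at chr11:106325381-106326103, 11.0 kb away and inside the sodium channel gene Scn4a, had 6.07 and 9.07. The downstream one had 3.28 and 3.83 and was nearer to the start of the growth hormone gene Gh than to that of Cd79b. No own region of Cd79a or Cd79b lay in the gene body. The lower of the Arhgef1 promoter regions, from 24902007, reached over the last bases of Cd79a, which ends at 24902197.

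Blnk, the adaptor gene, had a promoter region at chr19:40994128-40994443, but a weak one. It had 3.33 and 3.84, with pileups of 12 (6.2 to 21) and 16 (9.15 to 26), and ranked at the 3.66th and 5.99th percentile of promoter regions. It was not kept when −log10 q was required to be at least 10 or when the overlap had to cover 50% of each region, and the members then came to 3 of 9. Higher values were found at the other end of the gene, 67.9 kb from the start site and 2.7 kb past the gene's end, with 7.17 and 7.04. The last exon, exon 17, had 4.24 and 5.9. Both are nearer to a start site of Zfp518a, 18.1 kb from the first of them, than to that of Blnk. Replicate 2 alone had regions in introns 3 and 4 and 1.6 kb upstream, with 2.71 to 4.96.

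The co-receptor genes differed from each other. Cr2 had a region at chr1:195176436-195177000, centred 2 bp from its start, with 10.3 and 9.49 and pileups of 39 (27.7 to 53.3) and 41 (29.4 to 55.6). It ranked at the 60.7th and 42.4th percentile of promoter regions, and it was the only own region of the gene. The other region in the window was the promoter of Cr1l, which encodes the complement regulator Crry, with 13.9 and 13.3. The Cr1l value was thus above that of Cr2 in both replicates.

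Cd22 had a region over its upstream start sites in replicate 2 alone, at chr7:30880077-30880360, with a fold of 3.39 and a pileup of 14. Its regions found in both lay downstream, 5.7 kb past the gene's end inside the fatty acid receptor gene Ffar1, with 5.02 and 6.01, and 18.6 kb past it, with 4.94 and 7.43. These are nearer to start sites of Ffar1 and Ffar3 than to those of Cd22. Ms4a1, on chromosome 19 at 11249675 to 11266241, had no region in either list. The nearest region found in both was centred 89.6 kb from its start site.

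The replicates differed in the number of regions they held. In the member windows 34 of 37 regions of replicate 1 (91.9%, 95% Wilson interval 78.7 to 97.2) overlapped one of replicate 2, against 86.7% of the whole list. Of the replicate 2 regions 34 of 56 (60.7%, 47.6 to 72.4) overlapped one of replicate 1, against 73.5% of the whole list. Ebf1 alone held 11 of the 22 that did not, and without it the share was 66.7% (49.6 to 80.2). Regions of 1 gene are not independent, and the intervals cover counting error only. The 22 regions of replicate 2 alone had a median fold of 3.64, and the highest, in intron 6 of Ebf1, had 8.58. For the 29 own regions the ratio of replicate 2 to replicate 1 had a median of 1.07, against 1.11 over all regions found in both, and 17 were higher in replicate 2. Their summits lay a median of 20 bp apart, against 32 bp.

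**Figure D3:**
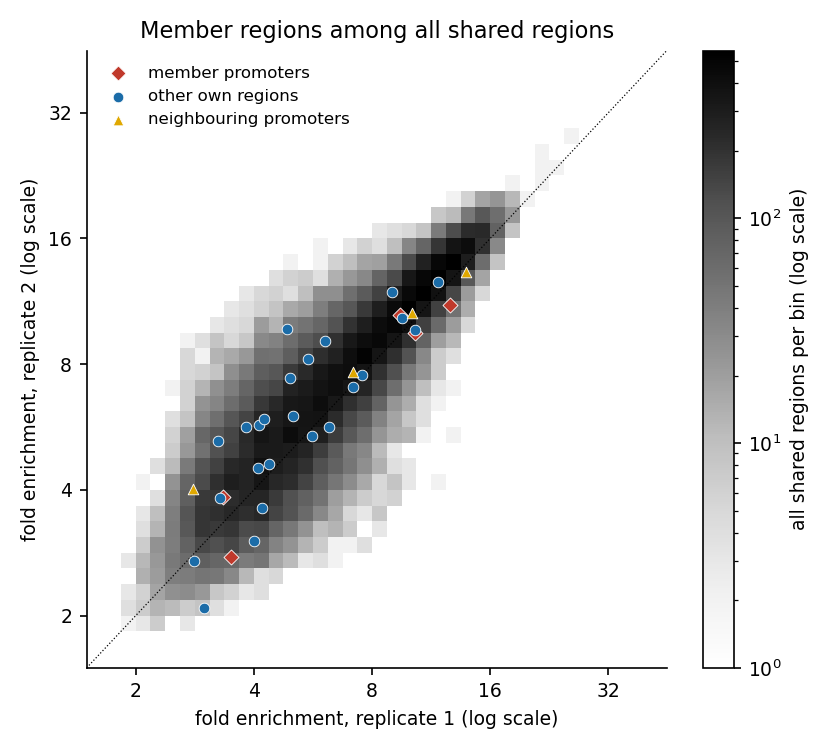
Fold enrichment in replicate 1 against replicate 2 on log axes, with all 44136 regions found in both as a grey density and the 33 regions of the member windows as symbols; the dotted line marks equal values. The members' regions lie within the cloud of all regions, and the promoter region of Blnk and the exon 1 region of Ebf1 lie at its low end.

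The promoters were then set against a sequence feature, the CpG ratio, which is the observed over the expected number of CG steps from 250 bases before to 50 after the gene's 5′ end. Promoters rich in CpG are known to be open in most cell types. The split at a ratio of 0.6 was chosen after the values were seen. Of genes under it 32.1% had a promoter region in both replicates, and of genes at or above it 88.9%. Under it were 8 members, and 4 of these had a promoter region: Ebf1 at 0.52, Pou2af1 at 0.32, Blnk at 0.22 and Cr2 at 0.58. The 4 others were Cd79a at 0.28, Cd22 at 0.32, Ms4a1 at 0.11 and Cd79b at 0.00. Pax5, at 0.78, was above it and had no region at that end. The GC content of these Pax5 bases was 38%, the lowest of the members, so the ratio rests on few C and G bases. All 12 T cell and 7 Th2 markers were under 0.6 as well.

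A further 31 genes of B cell development and signalling gave a wider view. Of these, 14 (45.2%) had a promoter region in both replicates, by role 5 of 8 transcription factors, 5 of 12 surface and surrogate receptor genes, 0 of 4 recombination genes and 4 of 7 signalling genes, beside the 57.3% of all protein-coding genes. The 5 highest were Tcf3, the gene of the E protein E2A, with 11.7 and 12.6, Irf8 with 10.3 and 11.7, Cd40 with 7.68 and 9.1, the kinase gene Lyn with 7.18 and 7.68, and Plcg2 with 5.88 and 8.42. Genes without a promoter region in both included the transcription factor genes Spi1, Spib and Bcl11a and the surface genes Fcer2a, Fcrla and Tnfrsf13b. They also included the surrogate light chain genes Vpreb1, Vpreb3 and Igll1, Rag1, Rag2 and Dntt, which cut or extend receptor genes, and the signalling genes Btk, Blk and Bank1. Of the 21 with a CpG ratio under 0.6, 5 had a promoter region (23.8%, beside 32.1% of all such genes), and of the 10 others 9 had one (90%, beside 88.9%).

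**Figure D4:**
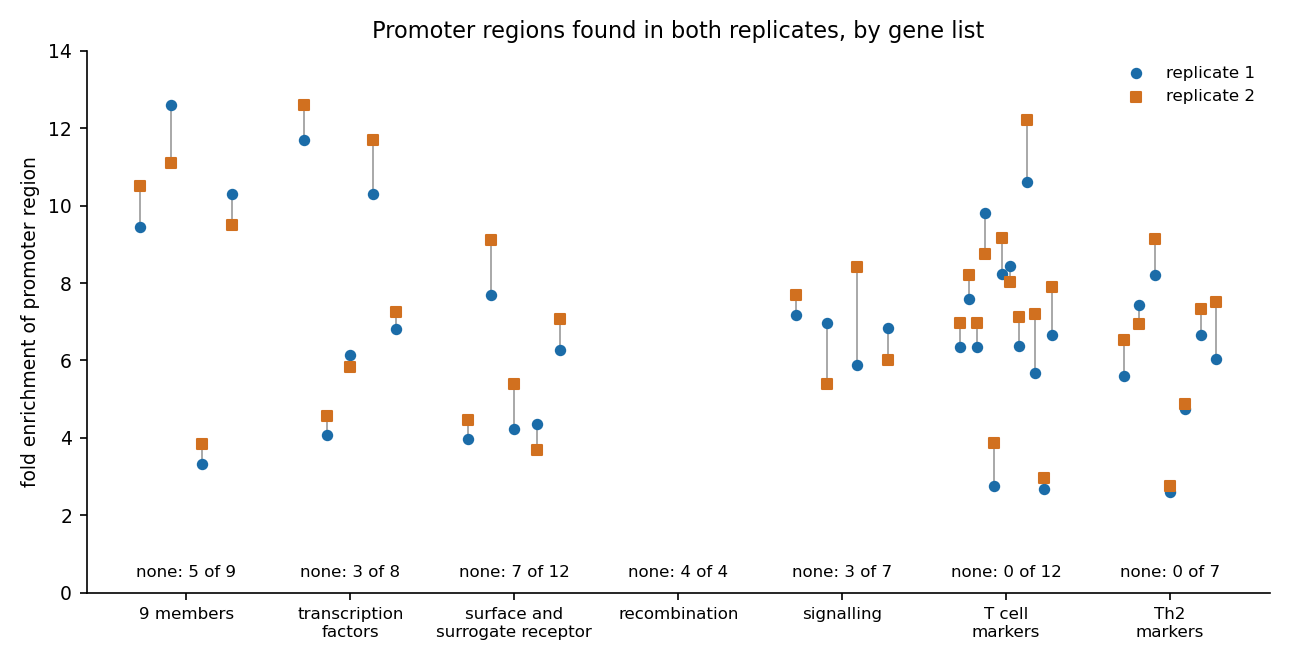
Fold enrichment of the highest promoter region of each gene, circles for replicate 1 and squares for replicate 2 joined by a line, for the 9 members, 4 groups of further B lineage genes and 2 marker lists; genes without a promoter region in both replicates are counted at the foot. Of the members 5 of 9 have none, of the recombination genes 4 of 4 and of the T cell markers 0 of 12.

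Short consensus sequences were then looked for, on either strand, in the 200 bp centred on the midpoint of the replicates' summits. For 27 of the 29 own regions this window held the summits of both replicates, and for 2, both at Ebf1 (4.2 kb upstream and 107.2 kb into the gene), it held neither. Those of B lineage factors were EBF (TCCCNNGGG), PAX5 (GCGTGAC), the octamer (ATTTGCAT) and PU.1 (GAGGAAGT). The octamer was found in 1 of the 29 own regions, the Blnk promoter, against 1.13% of all regions. It lay 82 bp from the summit of replicate 1 and 46 bp from that of replicate 2, and is the match in the Blnk run printed with the summits. EBF was found in 1, the region 4.2 kb upstream of Ebf1, against 3.5% of all regions. Its overlapping matches on both strands lay 240 and 241 bp from the summit of replicate 1 and 127 and 126 bp from that of replicate 2, in a window that held neither summit. PAX5 and PU.1 were found in 0, against 1.38% and 3.24%. At least 1 of these 4 was present in 2 own regions (6.9%) and in 8.98% of all regions. Among regions of replicate 2 alone, an octamer was found 390.9 kb from the Ebf1 start, an EBF match 17.5 kb past the end of Cd79a and a PU.1 match 8.4 kb past the end of Cd79b, with folds of 3.61, 3.06 and 5.16.

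Sequences bound by factors active in T cells and many other cells were counted in the same windows. AP-1 (TGANTCA) was found in 4 own regions (13.8%, against 21.2% of all regions), NFAT (TGGAAA) in 5 (17.2%, against 14.2%) and RUNX (TGTGGTT) in 2 (6.9%, against 7.66%). The E-box (CAGGTG) was found in 6 (20.7%, against 13.8%), IRF (GAAANNGAA) in 4 (13.8%, against 7.73%) and TCF (TCAAAG) in 3 (10.3%, against 14.3%). GATA factors (AGATAA) and STAT factors (TTCNNNGAA) had 2 each (6.9%, against 9.06% and 10.2%). The GC box (GGGCGG) had 3 (10.3%, against 22.2%), and ETS (CCGGAAG) and CTCF (AGGGGGCGC) had 0, against 5.66% and 1.43%. With 29 regions a single match is 3.45%, so these counts are a description. The background was not matched for promoters, which made up 5 of the 29 own regions and 12107 of the 44136 found in both. The side of the background changed with the window for RUNX, 17.2% against 12.1% in 400 bp and 27.6% against 19.9% over whole regions, and for the E-box, 27.6% against 26.5% and 44.8% against 45.9%. NFAT, at 31% against 28% in 400 bp, was 44.8% against 47.2% over whole regions, and the octamer there was 3.45% against 3.67%. The highest region of Pax5 held a RUNX and an NFAT match, and the promoter region of Pou2af1 held AP-1, RUNX and NFAT matches.

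RefSeq promoter sequences on GRCm38.p6 were present for 7 members, not for Cd79b and Ms4a1. Each entry runs from 250 bases before to 50 after a start. In the 8 entries EBF was found in 1, the octamer in 1, PAX5 and PU.1 in 0 and the E-box in 4. The shares over 32851 promoters were 6.56%, 1.74%, 2.09%, 3.2% and 20.2%. Upstream bases are shown for Cd79a, a receptor chain gene with no promoter region, and for Cd22, the entry with the EBF match, without the bases that are annotated as untranslated exon. Capitals mark an E-box in Cd79a and, in Cd22, overlapping EBF matches on both strands, 49 and 48 bases before the start site.
Cd79a, chr7:24897247-24897380, plus strand: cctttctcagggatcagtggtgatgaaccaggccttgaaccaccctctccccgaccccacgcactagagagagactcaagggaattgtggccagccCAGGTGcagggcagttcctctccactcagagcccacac
Cd22, chr7:30879029-30879176, minus strand: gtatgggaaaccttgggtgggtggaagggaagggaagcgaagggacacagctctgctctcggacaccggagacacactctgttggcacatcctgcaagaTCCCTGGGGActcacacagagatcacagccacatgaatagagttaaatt
Neither run was overlapped by a region found in both replicates.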

How the data were processed

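ATAC-seq of 2 Th2 libraries was deposited by the authors as 1 narrowPeak list per library on mm10, each derived from that library's own alignment per the file headers. For the aligner, the peak caller, any transposase shift and the versions, the entry is: not given in the sources used here. The lists give the authors' fold enrichment at each summit, their −log10 p-value and −log10 q-value (lowest 1.00 and 1.01), and the authors' score, which was not used. The members and lists were chosen with earlier results of these data known, and no test was made.

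A pileup is the whole number whose Poisson p, with a pseudocount of 1, matches the deposited −log10 p to 0.001. Its interval covers counting error only. Pileups were found for 51545 of 51545 and 60818 of 60820 regions with −log10 p up to 290. Start sites were those of protein-coding transcripts in the GENCODE M21 basic annotation. Regions ended past a chromosome on 0 chromosomes of GRCm38.p6. An own region was centred over 1 kb from start sites of other protein-coding genes or within 1 kb of one of the member's. Exons and introns are numbered on the longest protein-coding transcript. Joining, classes, pileups and matches were tested on simulated data. Python 3.11.15, scipy 1.17.1 and pysam 0.24.0 were used. Named were all members, genes whose promoters lay in their windows, genes of the further list without a promoter region, some of which are not reported here, and the 5 with the highest; other genes were named after their values were seen. The alternatives were another threshold, overlap, window, promoter width, start site or search window, and each replicate alone.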

Additional observations from a re-analysis of the deposited data

How the results depend on the processing

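The 4 members with a promoter region came to 3 to 5 over the alternatives run: Blnk was lost with the stricter threshold and the 50% overlap, Pax5 was added with the comprehensive annotation and Cd22 without replicate 1. The 14 further genes came to 11 to 18, the latter with a promoter width of 2.5 kb, which added Bcl11a, Tnfrsf13b, Vpreb1 and Dntt. With −log10 q of at least 10, regions found in both fell to 18 and own regions to 15, and the median own fold enrichment was 7.55 in replicate 1 and 9.07 in replicate 2, since weak regions were left out. With an overlap of 50% of each region the replicate 2 median was 7.23. With the gene body alone the counts were 19 and 18, and the replicate 2 median was 6.72. With 50 kb on each side regions found in both numbered 50, and with 100 kb, an alternative chosen after seeing the data, 81. With 1 replicate left out, regions in the windows ranged from 37 to 56, own regions from 33 to 52, members with a promoter region from 4 to 5 and further genes from 16 to 17. The median fold was 4.87 in either replicate alone. Matches to the 4 B lineage sequences were found in 5 own regions (17.2%, against 28% of all regions) when whole regions were searched. Of 51 values under alternatives 37 stayed near the main value. Counts had to lie within 1.5 times it, and median folds within 0.678, the standard deviation of the 2 replicate medians. No paired analysis was possible because there is 1 group. The weak regions rest on low counts: pileups of own regions were as low as 10 in replicate 1 and 14 in replicate 2. Whether depth limits them was not tested.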

Other observations

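Ms4a1 lies in a cluster of 19 Ms4a genes on chromosome 19, of which 3 had an open promoter, beside 57.3% of all protein-coding genes. That share was 32.1% for genes with a promoter CpG ratio under 0.6 and 88.9% for the rest, and the cluster was not split by this ratio. Ms4a4b, Ms4a6c and Ms4a6b had a promoter region in both replicates, with fold enrichments of 5.82 and 10.3, 4.09 and 4.52, and 4.86 and 5.49. Their 5′ ends lie 177, 203 and 250 kb from that of Ms4a1. The 16 others had none, and 5 of these, Ms4a13, Ms4a12, Ms4a1, Ms4a5 and Ms4a14, had no region found in both replicates within 20 kb. These 5 are neighbours of one another. At least 1 such region was present in 75% of all gene windows. The nearest region to Ms4a1, at chr19:11355561-11356195, had 13.6 and 15.8, above every own region of the members in each replicate.

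Between 20 and 100 kb from the members the surroundings differed. Pax5 had 1 region found in both, the promoter of Zcchc7 with 13.8 and 15.1. Blnk had 11, of which 2 were at promoters of other genes. The highest lay inside Dntt, the terminal transferase gene, with 10.8 and 13.3. Dntt had no region found in both within 1 kb of a start site, but had one within 2.5 kb. Cr2 had 3, and the highest was the promoter of Cd46, another complement regulator, with 15.1 and 15.2. Cd22 had 10, with the promoter of Fam187b at 10.8 and 11.8. Ebf1 had 3, and the highest lay 35.8 kb upstream with 8.43 and 10.2. These genes were named after their values were seen.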
